A study of Mus musculus with 24 samples.

Results

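The 35 genes described here cover fatty acid oxidation, ketone body formation and their control by the nuclear receptor PPAR-alpha in mouse liver. They were chosen by name, with earlier results of these data known. They were kept where their mean over the 24 libraries was 1 CPM or more (CPM being counts scaled to an equal library size). All 35 of the named genes among the 54532 in the count table met that floor and passed the low-count filter of the test. By role they are 3 regulators or hormones, 4 genes of uptake and activation, 4 of the carnitine shuttle, 10 of the mitochondrial spiral, 3 of electron transfer, 7 of peroxisomes, 1 ketone body enzyme and 3 other PPAR-alpha targets. Liver RNA was sequenced from mice with intact Hlf, Dbp and Tef (Hlf+/+/Dbp+/+/Tef+/+, wild type here) and from mice lacking all 3 (Hlf-/-/Dbp-/-/Tef-/-, knockout here), which encode the PAR bZip transcription factors. All animals were 12 to 16 weeks old with the feeding regimen AL, read here as ad libitum. Each genotype was sampled at zeitgeber times (ZT, hours after lights on) 4, 8, 12, 16, 20 and 24. Each genotype and time had 2 libraries, and their names carry the letter I or P, which the labels used here do not spell out. They are called set I and set P below. Whether the 2 libraries of a group were made from different animals is not stated, and p-values here therefore rest on a spread that may be technical. Strain and the design of the deleted alleles are not given in the labels, and in bulk liver RNA fewer cells of a type and less RNA per cell cannot be told apart.

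PPAR-alpha is a receptor for fatty acids and their derivatives that binds DNA with RXR and switches on the genes of fat burning, above all in fasting. Fatty acids are taken up, bound and joined to coenzyme A, then either carried as acylcarnitines into mitochondria for shortening by repeated oxidation or, for very long and branched chains, shortened first in peroxisomes. The liver turns much of the acetyl-CoA formed into ketone bodies for other organs.

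Total counts were 14613001 to 19288322 per library. Dbp lay between 0.279 and 56.8 CPM in wild type (median 3.05) and between 0 and 0.114 in knockout (median 0). Tef was 42.4 to 330 CPM (median 190) against 3.54 to 30.1 (median 12.7), and Hlf 46.9 to 95.6 (median 72.0) against 0.112 to 3.34 (median 1.48). The 10 hepatocyte markers summed to 73304 to 102376 CPM in wild type and to 47558 to 73130 in knockout. By the test used below 5 of them were lower and none higher, where 21.1% and 12.1% of all genes were. Wild-type set I stood apart from the rest: within libraries, the correlation across genes between GC content and level relative to the other libraries was 0.44 ± 0.20 (SD, n = 6) there, against −0.06 ± 0.10 in wild-type set P, −0.05 ± 0.06 in knockout set I and −0.23 ± 0.08 in knockout set P.

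Averaged over the 6 times, 18 of the 35 genes were lower and 3 higher in knockout, while 14 did not pass the test (edgeR's quasi-likelihood test with Benjamini-Hochberg adjustment over 15090 genes, adjusted p under 0.05). Over all genes tested, 21.1% were lower and 12.1% higher. As the list was chosen with earlier results of these data known, these shares are set beside it as a description only. Of the 35 log2 differences 30 were negative, and their median was −0.29, beside −0.02 over all genes. The 10 hepatocyte markers had a median of −0.30, with 8 negative, so this shift cannot be called particular to the 35 genes. Among the 35, the largest falls were in Bdh1 (1.68-fold), Ehhadh (1.64-fold) and Acsl1 (1.60-fold), and Cd36 rose the most (2.09-fold). In set P alone, 7 were lower and 2 higher, where 6.62% and 7.18% of all genes were, with a median of −0.15. In set I alone, 14 were lower and 1 higher, where 17.4% and 18.9% of all genes were, with a median of −0.47. No member had all 12 knockout libraries below all 12 wild-type libraries, an order that 0.921% of all genes showed. Leaving out all wild-type set I libraries gave 9 lower, where 1366 of 15424 genes were lower. Leaving out all knockout set P libraries gave 3 lower and 0 higher, where 369 and 210 of 15533 genes were. In the latter fit 18 members lost their call but 0 changed sign, with Cpt2 at −0.59 and Acadvl at −0.50.

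**Figure D1:**
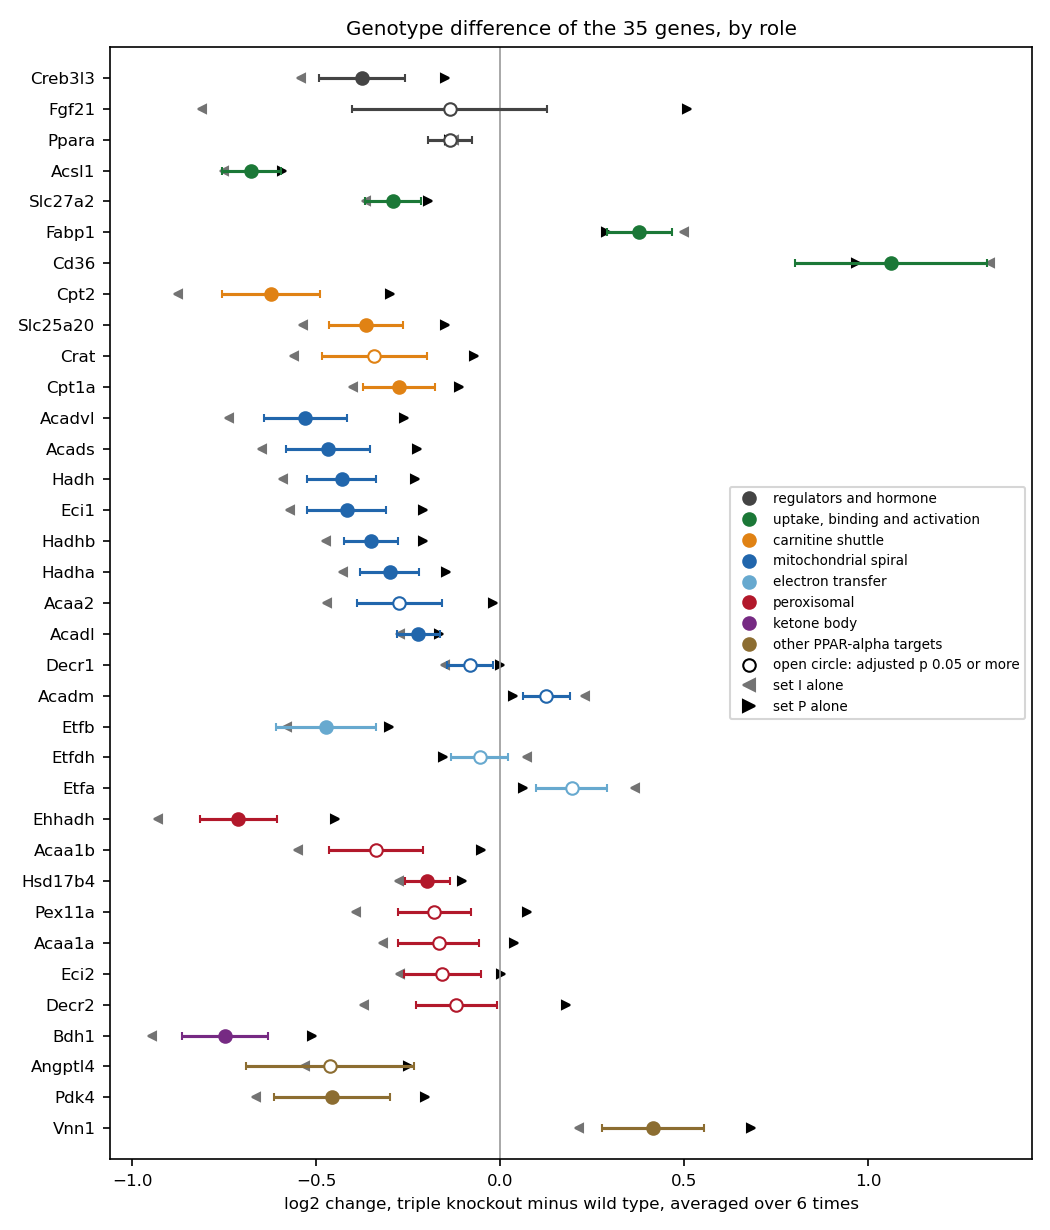
Log2 difference of knockout against wild type (x axis) for the 35 genes, by role, from the fit to all 24 libraries with its standard error (filled circles passed the test, open circles did not), and from set I (left-pointing) and set P (right-pointing triangles) alone. Most points lie left of 0, with Bdh1, Ehhadh and Acsl1 farthest left and Cd36 at 1.06 on the right; set I points usually lie farther from 0 than set P points.

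Among the regulators, Ppara itself was not called different on average. Ppara (ENSMUSG00000022383, mm10 chr15:85734983-85802819) had 151 ± 55.3 CPM in wild type and 132 ± 26.8 in knockout (SD, n = 12), a log2 difference of −0.14 ± 0.06 (SE) with an adjusted p of 0.0864 in edgeR. At ZT12 the wild-type libraries of sets I and P read 229 and 224 CPM against 171 and 163 in knockout, whereas at ZT24 they read 97.7 and 91.1 against 109 and 97.6. Both knockout libraries lay below both wild-type libraries at ZT04, ZT08 and ZT12, but a change of the difference over time was not called (adjusted p = 0.683). After GC and length correction the averaged difference was −0.05. Ppara lies 3.91 Mb from Tef on chromosome 15. Creb3l3 encodes CREBH, a liver transcription factor that works with PPAR-alpha on fasting genes. It fell by 0.38 ± 0.12 on the log2 scale (edgeR, adjusted p = 0.0256), from 384 ± 102 to 294 ± 30.4 CPM. In set P the difference was −0.15 (adjusted p = 0.210), after correction for GC content and length it was −0.09 (adjusted p = 0.181), and the call was lost without the wild-type set I library of ZT04, ZT08, ZT12, ZT16 or ZT24 (adjusted p 0.0515 to 0.0595).

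Fgf21, the hepatic fasting hormone, was scarce and uneven. At ZT04 the wild-type libraries had 16.8 and 10.8 CPM and the knockout libraries 2.56 and 1.72, the widest separation at any time for this gene. At ZT24 the wild-type libraries had 2.30 and 1.73 CPM and the knockout libraries 1.80 and 10.8, so that set P of the knockout stood alone. The average log2 difference was −0.14 ± 0.26 (edgeR, adjusted p = 0.683), and the ZT04 difference of −2.68 was not called either (adjusted p = 0.0690). Fgf21 lies 0.0896 Mb from the deleted Dbp on chromosome 7, and what part of its values goes with that neighbourhood was not tested.

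Uptake, binding and activation held genes that moved in opposite directions. Acsl1 (ENSMUSG00000018796, mm10 chr8:46471037-46536051) encodes the main long-chain acyl-CoA synthetase of liver, which commits fatty acids to oxidation or storage. Its wild-type libraries ran from 1224 to 2675 CPM with a median of 1807, and its knockout libraries from 859 to 1667 with a median of 1190. Both knockout libraries lay below both wild-type libraries at all 6 times, although the full ranges overlapped. Acsl1 fell by 0.68 ± 0.08 on the log2 scale (edgeR, adjusted p = 3.4e-05). The fall was 0.59 in set P and 0.75 in set I, and 1.1 after GC and length correction. Slc27a2, a very-long-chain acyl-CoA synthetase and fatty acid transporter, went from 1227 ± 389 to 980 ± 167 CPM (−0.29 ± 0.08, adjusted p = 0.0110). In set P the difference was −0.20 (adjusted p = 0.133), and after GC and length correction the difference was −0.15 (adjusted p = 0.0738).

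Cd36, the fatty acid translocase of the plasma membrane, rose. Wild-type set I held the lowest values, at 7.70 CPM at ZT20 and 9.40 at ZT16, but also 106 CPM at ZT12, and wild-type set P held values between 28.9 and 55.9. The knockout libraries lay between 35.8 and 102 CPM (set I) and between 59.3 and 119 (set P). Within set P all 6 knockout libraries lay above all 6 wild-type libraries, an order that 2.82% of all genes showed. In set I the ranges overlapped, with the ZT12 wild-type library above every knockout library of that set and the ZT24 one (48.0 CPM) above the knockout library of ZT08 (35.8 CPM). The log2 difference was 1.06 ± 0.26 (edgeR, adjusted p = 0.00853), 0.97 in set P (adjusted p = 0.00654) and 1.33 in set I (adjusted p = 0.0843). With GC and length correction it was 0.50, and the longest annotated transcript of Cd36 is 38.4% GC. Cd36 is also abundant in macrophages, capillary endothelium and fat. The 10 Kupffer cell markers summed to 488 to 923 CPM in wild type and 531 to 793 in knockout (3 higher, none lower), and the 10 sinusoidal endothelial markers to 386 to 485 against 440 to 576 (2 higher, none lower). Of all genes 12.1% were higher and 21.1% lower. The median log2 difference was 0.02 for the Kupffer markers (5 of 10 negative) and 0.13 for the endothelial markers (3 of 10 negative). The 7 adipocyte markers summed to 865 to 5072 against 1063 to 2714, and of the 3 abundant enough to test 1 was lower. No marker in these 3 lists was at 0 in all libraries, and their part in the Cd36 difference was not tested.

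Fabp1 (ENSMUSG00000054422, mm10 chr6:71199827-71205023), the liver fatty acid binding protein that carries fatty acids through the cytosol, was the most abundant of the 35 per kilobase of transcript. Wild-type libraries had 1247 to 2637 CPM (median 2037) and knockout libraries 2266 to 3174 (median 2577). Both knockout libraries exceeded both wild-type libraries at every one of the 6 times. Fabp1 rose by 0.38 ± 0.09 on the log2 scale (edgeR, adjusted p = 0.00629), by 0.29 in set P and 0.50 in set I, and by 0.25 after GC and length correction. Its promoter was the single member promoter that held the PPAR response element searched for, a direct repeat of AGGNCA with 1 spacer base (searched on both strands). Of 32851 mouse promoters in RefSeq (GRCm38.p6, 250 bases upstream of each start), 0.338% held it, as did 1 of the 32 promoters found for 29 of the 35 genes. The D-box core bound by the deleted factors (TTANGTAA, also searched on both strands) was in 2.06% of all promoters and in 0 of those 32. These matches describe letters in a window, not binding. The 198 bases of RefSeq sequence before the annotated Fabp1 transcripts, chr6:71199629-71199826 on the + strand, are shown because the rise of Fabp1 went against most of the other members; the capitals mark the match, which reads on the other strand and begins 67 bases before the RefSeq start.
Fabp1 promoter: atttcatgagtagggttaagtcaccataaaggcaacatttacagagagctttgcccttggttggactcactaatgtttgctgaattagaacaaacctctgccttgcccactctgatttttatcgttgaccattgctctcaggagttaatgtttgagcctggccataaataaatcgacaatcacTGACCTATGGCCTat

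In the carnitine shuttle, 3 of 4 genes fell, where 21.1% of all genes did. In set P alone 1 fell, where 6.62% of all genes did. Cpt1a makes acylcarnitines at the outer mitochondrial membrane and is the gate of mitochondrial oxidation. At ZT12 it read 1387 and 888 CPM in wild-type sets I and P against 640 and 580 in knockout, and at ZT20 it read 290 and 232 against 306 and 317. The averaged difference was −0.27 ± 0.10 (edgeR, adjusted p = 0.0440), and this call was lost in 18 of 24 fits that each left out 1 library, with adjusted p up to 0.0993, and also in DESeq2 (0.0532), with RLE size factors (0.0522) and with no low-count filter (0.0529). In set P it was −0.11 (adjusted p = 0.575). Cpt2, which remakes acyl-CoA on the inner side, went from 191 ± 63.3 to 121 ± 13 CPM. Its wild-type set I libraries held 152 to 320 CPM, its wild-type set P libraries 116 to 171 and all its knockout libraries 103 to 146. Cpt2 fell by 0.62 ± 0.13 (edgeR, adjusted p = 0.00378), with −0.30 in set P (adjusted p = 0.0374), −0.88 in set I and −0.41 after GC and length correction. Slc25a20, the carrier that exchanges acylcarnitine for carnitine, fell by 0.36 ± 0.10 (adjusted p = 0.0151), with −0.15 in set P (adjusted p = 0.221). Crat, which forms short-chain carnitine esters, had a difference of −0.34 ± 0.14 that was not called (adjusted p = 0.0734); it was called without the wild-type set P library of ZT04, ZT12, ZT16 or ZT20 (adjusted p 0.0241 to 0.0450) and with no low-count filter (0.0231), and was −0.20 after GC and length correction.

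In the mitochondrial spiral, 7 of 10 genes fell and 3 were not called, where 21.1% of all genes fell. In set P alone 3 fell, where 6.62% of all genes did. The first step is done by acyl-CoA dehydrogenases of differing chain length. Acadvl, for very long chains, fell by 0.53 ± 0.11 (edgeR, adjusted p = 0.00374), from 237 ± 69.9 to 162 ± 10.4 CPM. Within set P it read 168 to 210 CPM in wild type and 152 to 167 in knockout, with no overlap, an order 2.4% of all genes showed. In wild-type set I it reached 387 CPM. On the opposite strand Dvl2 covers 42.9% of the exonic bases of Acadvl, and as the strand setting of the counting is not known, reads from Dvl2 cannot be told apart from those of Acadvl. Acads, for short chains, fell by 0.47 ± 0.11 (adjusted p = 0.00827) and Acadl, for long chains, by 0.22 ± 0.06 (adjusted p = 0.0125, or 0.166 with no low-count filter and 0.135 in set P, where the difference was −0.17). With GC and length correction these 3 read −0.28, −0.17 and −0.39. Acadm, for medium chains, had 394 ± 52.8 CPM in wild type and 428 ± 30.9 in knockout (0.13 ± 0.06, adjusted p = 0.122), which passed without the wild-type set P library of ZT16 (adjusted p = 0.0470) or of ZT20.

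Later steps of the spiral held 4 further falls. Hadha and Hadhb, the subunits of the trifunctional protein for long-chain intermediates, fell by 0.30 ± 0.08 and 0.35 ± 0.07 (edgeR, adjusted p = 0.0134 and 0.00318). In set P neither passed, at −0.15 (adjusted p = 0.205) and −0.21 (adjusted p = 0.0553). Hadhb read 134 to 226 CPM in wild type and 115 to 155 in knockout, and both knockout libraries lay below both wild-type libraries at 5 of 6 times. Its longest annotated transcript is 39.1% GC, and after GC and length correction its difference was −1.21. That value lies outside the differences in set P (−0.21) and set I (−0.47) alone, and the reason was not tested. Hadh, the short-chain hydroxyacyl-CoA dehydrogenase, fell by 0.43 ± 0.09 (adjusted p = 0.00420) from 437 ± 95.9 to 322 ± 22.7 CPM. Eci1, which moves double bonds in unsaturated chains, fell by 0.42 ± 0.11 (adjusted p = 0.0113), or by 0.14 after that correction, and had −0.21 in set P (adjusted p = 0.0828). Acaa2, a thiolase, had −0.27 ± 0.11 (adjusted p = 0.0736): its wild-type libraries read 717 to 1494 CPM (set I) and 658 to 807 (set P), beside 654 to 829 in knockout. It was called without the wild-type set P library of ZT04, ZT16 or ZT20 and with no low-count filter (adjusted p = 0.0463), and had −0.02 after GC and length correction and in set P. Decr1, the dienoyl-CoA reductase for unsaturated chains, had −0.08 ± 0.06 (adjusted p = 0.285) and was called only under GC and length correction (−0.37, adjusted p = 0.0496).

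Electrons from these dehydrogenases pass through the flavoprotein ETF. Its subunit Etfa stood at 266 ± 50.3 CPM in wild type and 302 ± 17.7 in knockout (0.20 ± 0.10, adjusted p = 0.117), and it passed without the wild-type set P library of ZT16 (adjusted p = 0.0346) or ZT20 (0.0158). After GC and length correction it had 0.07. Etfdh, which hands the electrons on to ubiquinone, had −0.06 ± 0.08 (adjusted p = 0.559), but −0.39 with an adjusted p of 0.00420 under GC and length correction. Etfb, the partner subunit of Etfa, fell by 0.47 ± 0.14 (edgeR, adjusted p = 0.0182), and that correction ended the call (−0.15, adjusted p = 0.126), as did set P alone (−0.30, adjusted p = 0.120). Etfb counted 9.07 CPM per kilobase beside 204 for Etfa, and 58.2% of its exonic bases are shared with same-strand genes of the GENCODE annotation (Gm45233 and Mir7051), so its counts are uncertain. Etfb also lies 2.25 Mb from the deleted Dbp on chromosome 7, and the part of that neighbourhood in its fall was not tested.

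Of the 7 peroxisomal genes, 2 fell and 5 were not called, where 21.1% of all genes fell. In set P alone 1 fell, where 6.62% of all genes did. Ehhadh (ENSMUSG00000022853, mm10 chr16:21761287-21787807), the peroxisomal bifunctional enzyme for straight chains, stood at 390 ± 116 CPM in wild type and 235 ± 39.2 in knockout. At ZT12 the wild-type libraries read 696 and 407 CPM and the knockout libraries 217 and 197, the widest gap of the day. At ZT16 they read 375 and 320 against 322 and 292, and this was the only time at which the genotypes overlapped. Ehhadh fell by 0.71 ± 0.10 on the log2 scale (edgeR, adjusted p = 0.000227), by 0.45 in set P (adjusted p = 0.0248) and by 0.93 in set I. Hsd17b4, the bifunctional enzyme for branched and very long chains, fell by 0.20 ± 0.06 (adjusted p = 0.0257), with −0.10 in set P (adjusted p = 0.347), and the call was lost without the wild-type set I library of ZT04, ZT08 or ZT16 (adjusted p 0.0554 to 0.0598) and with no low-count filter (0.218).

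The peroxisomal thiolases Acaa1a and Acaa1b are near-identical copies, with 95.3% identity over the 1477 aligned bases of their longest coding transcripts, so reads could be split between them and their separate values are uncertain. Acaa1a had −0.17 ± 0.11 (adjusted p = 0.220) and Acaa1b −0.34 ± 0.13 (adjusted p = 0.0534). Acaa1b was called in fits without the wild-type set P library of ZT04, ZT08, ZT12, ZT16 or ZT20 and with no low-count filter (adjusted p = 0.0112), while in set P alone it had −0.05 (adjusted p = 0.8) and after GC and length correction −0.01. Eci2, an enoyl-CoA isomerase, had −0.16 (adjusted p = 0.225), Decr2, the peroxisomal dienoyl-CoA reductase, −0.12 (adjusted p = 0.377), and Pex11a, a membrane protein of peroxisome proliferation, −0.18 (adjusted p = 0.155). These 3 and Acaa1a had positive differences in set P, at 0.00 for Eci2, 0.18 for Decr2, 0.07 for Pex11a and 0.04 for Acaa1a, none of them called.

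Side by side, the 16 mitochondrial genes (the carnitine shuttle without Crat, the spiral and electron transfer) had 11 falls and a median log2 difference of −0.33, and the 7 peroxisomal genes 2 falls and a median of −0.18, where 21.1% of all genes fell. In set P the medians were −0.16 and 0.00, with 4 and 1 falls (6.62% of all genes), and in set I −0.47 and −0.37, with 9 and 1 (17.4% of all genes). With 7 genes, each peroxisomal count is within 1 gene of these shares. A test of the difference between the lists was not made, so neither can be said to have fallen more. By time the mitochondrial median ran from −0.57 at ZT04 to −0.10 at ZT08, and the peroxisomal median from −0.67 at ZT12 to 0.04 at ZT08. Summed over its genes, the mitochondrial level was 3813 to 6409 CPM in wild-type set I, 3888 to 5090 in wild-type set P, 3567 to 4420 in knockout set I and 3663 to 4205 in knockout set P. The peroxisomal sum was 1676 to 3341, 1473 to 2239, 1486 to 2015 and 1458 to 1918 CPM in the same order. Both sums were highest in the wild-type set I library of ZT12, at 6409 and 3341 CPM.

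**Figure D2:**
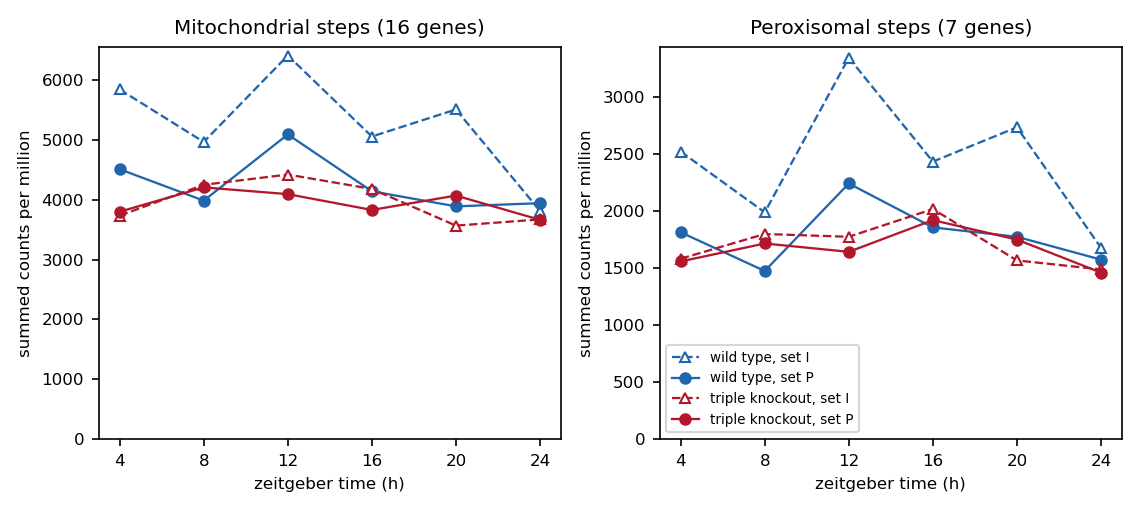
Summed CPM (y axis) of the 16 mitochondrial and the 7 peroxisomal genes against zeitgeber time (x axis), with each line joining the 6 libraries of 1 genotype and set. Wild-type set I lies above the other 3 lines from ZT04 to ZT20 in both panels, and at ZT24 the 4 libraries lie between 3663 and 3942 CPM (mitochondrial) and between 1458 and 1676 CPM (peroxisomal).

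Ketone body formation was represented by Bdh1, which interconverts acetoacetate and 3-hydroxybutyrate in mitochondria. Wild-type libraries of Bdh1 (ENSMUSG00000046598, mm10 chr16:31422280-31458901) had 212 to 503 CPM (median 334) and knockout libraries 116 to 322 (median 177). At ZT04 they read 503 and 344 CPM against 169 and 219, and both knockout libraries stayed below both wild-type libraries at all 6 times. Bdh1 fell by 0.75 ± 0.12 (edgeR, adjusted p = 0.000417), by 0.51 in set P (adjusted p = 0.000733) and by 0.95 in set I. Among other genes of ketone body metabolism, Acat1, the mitochondrial acetoacetyl-CoA thiolase, fell by 0.35 ± 0.08 (edgeR, adjusted p = 0.00420), from 500 ± 66.7 to 392 ± 26.2 CPM. Slc16a1, a transporter of lactate and ketone bodies, fell by 0.26 ± 0.07 (adjusted p = 0.0148). In set P alone their differences were −0.19 (adjusted p = 0.0675) and −0.14 (adjusted p = 0.161).

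The 3 other targets each behaved in their own way. Pdk4, the kinase that holds back pyruvate oxidation, fell by 0.46 ± 0.16 (edgeR, adjusted p = 0.0383), a call lost in 15 of 24 fits that left out 1 library (adjusted p up to 0.0876) and in set P alone (−0.21, adjusted p = 0.153). With GC and length correction its difference was −0.73. Its level ranged from 3.37 to 33.7 CPM in wild type and from 2.64 to 33 in knockout, with the highest library of each genotype at ZT24. Angptl4, a secreted inhibitor of lipoprotein lipase, read 201 and 69.7 CPM at ZT04 in wild type against 30.4 and 31.2 in knockout, and at ZT24 10.6 and 40.9 against 42.4 and 30.5. Its averaged difference of −0.46 ± 0.23 was not called (adjusted p = 0.117), but was without the wild-type set P library of ZT04 or the wild-type set I library of ZT24 (adjusted p = 0.0479 and 0.0486) or with no low-count filter (0.000868). Vnn1, the pantetheinase that releases cysteamine from pantetheine, rose on average by 0.41 ± 0.14 (adjusted p = 0.0334), with 0.68 in set P (adjusted p = 0.0790) and 0.21 in set I (adjusted p = 0.649). At ZT12 it read 118 and 53.3 CPM in wild type against 46.0 and 40.8 in knockout, and at ZT16 18.5 and 14.6 against 42.3 and 41.7. The Vnn1 call was lost without the wild-type set P library of ZT24 (adjusted p = 0.0602) and with GC and length correction (0.21, adjusted p = 0.364).

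At single times each genotype had 2 libraries, and few members passed. At ZT12, Ehhadh (−1.41 ± 0.26, adjusted p = 0.00825) and Acsl1 (−1.04, adjusted p = 0.0113) were lower, where 1.15% of all genes were, and none higher (0.696% of all genes). At ZT20, Acsl1 was lower (−0.82, adjusted p = 0.0368), where 2.47% were, and none higher (1.46%). Each of these 3 calls was lost without the wild-type set I library or either knockout library of its time, with adjusted p of 0.0556 to 0.104 for Ehhadh, 0.0569 to 0.110 for Acsl1 at ZT12 and 0.0752 to 0.287 for Acsl1 at ZT20. By edgeR 0 members were called at ZT04, ZT08, ZT16 and ZT24, where 23, 4, 9 and 5 members had an unadjusted p under 0.05. Of all genes 17.3%, 8.14%, 18.1% and 6.29% had such a p at those times (11.6% at ZT12 and 31.7% at ZT20, for 19 and 14 members). DESeq2 called 4, 0, 3 and 0 members there, and 2.14%, 1.27%, 2.65% and 0.941% of all genes. By edgeR's adjusted p 0.696%, 0.603%, 1.01% and 0.384% of all genes were lower at those times and 0.563%, 0.331%, 0.643% and 0.292% higher.

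The median difference was widest at ZT04 and ZT12, as the heat map by time shows. The median over the 35 genes was −0.56 at ZT04 and −0.48 at ZT12, and −0.10, −0.18, −0.21 and −0.07 at ZT08, ZT16, ZT20 and ZT24, beside medians of −0.02 to 0.00 over all genes. Both knockout libraries lay below both wild-type libraries for 27 members at ZT04 and 25 at ZT12, where 27.4% and 26% of all genes did. At ZT08, ZT16, ZT20 and ZT24 the counts were 9, 13, 11 and 12, beside 24.4%, 29%, 30.6% and 20%. Both knockout libraries lay above for 2, 5, 1, 7, 9 and 6 members at the 6 times in order, beside 23.8%, 21.1%, 22.4%, 29.8%, 31.4% and 18.7%. The test of whether the genotype difference varied over time called 0 members in edgeR (6 with an unadjusted p under 0.05, where 6.4% of all genes had one) and 2 in DESeq2, where 0.768% of all genes were called. A contrast of ZT04 to ZT12 against ZT16 to ZT24, chosen after these values were seen, called 0 members in edgeR (0.0265% of all genes), with 10 members at an unadjusted p under 0.05, where 6.2% of all genes were, and a smallest adjusted p of 0.288. Its differences were −0.84 for Cpt1a, −0.50 for Ppara and −1.20 for Vnn1.

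**Figure D3:**
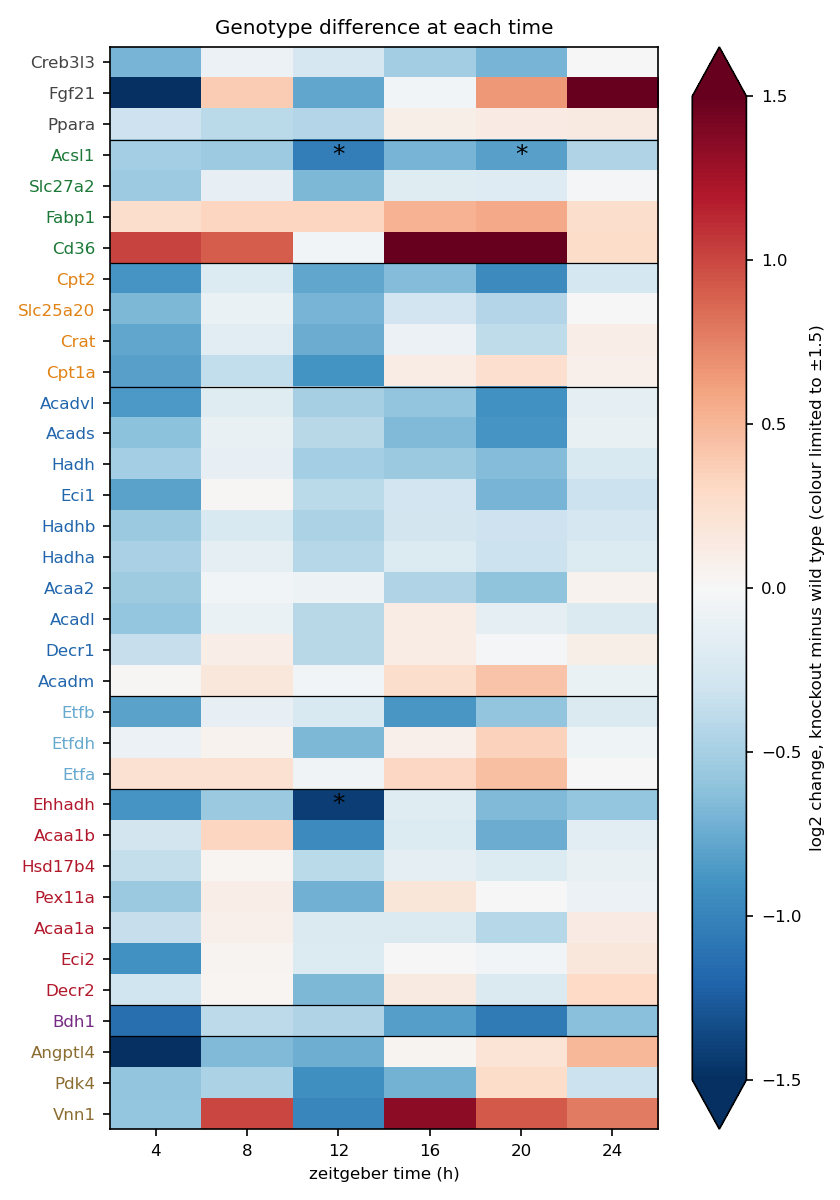
Log2 difference of knockout against wild type at each zeitgeber time (columns) for each of the 35 genes (rows, by role), blue for lower and red for higher in knockout, with colours limited to a log2 difference of 1.5 and asterisks for calls. The ZT04 and ZT12 columns are mostly blue (31 and 34 of 35 negative), and the Fabp1 row is red throughout.

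Daily rhythms were tested in each genotype by fitting a cosine wave of 24 h. In wild type 8 members had a rhythm, where 8.67% of all genes did, and in knockout 5, where 3.57% did; 4 had one in both. Ppara had an amplitude (log2 distance from the daily mean to the fitted peak) of 0.68 ± 0.06 with its peak at 9.78 ± 0.33 h in wild type and 0.37 ± 0.06 at 10.8 ± 0.60 h in knockout. Cpt1a had 1.11 ± 0.11 at 9.35 ± 0.39 h and 0.61 ± 0.11 at 10.3 ± 0.71 h. Both peaked between ZT08 and ZT12 in both genotypes, with lower fitted amplitudes in knockout. A test of the difference in rhythm called 0 of 35 members and 0 of all 15090 genes in edgeR; Ppara (unadjusted p = 0.0019, adjusted p = 0.547) and Cpt1a (0.0115, 0.771) were the 2 members with an unadjusted p under 0.05, where 5.24% of all genes had one, and DESeq2 called 0 members.

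The other rhythms fell into early and late peaks. Pdk4 peaked at 21.0 ± 0.59 h in wild type and 21.3 ± 0.48 h in knockout, with amplitudes of 1.35 ± 0.21 and 1.67 ± 0.22. Acsl1 peaked at 18.9 ± 0.75 h with 0.41 ± 0.08 in wild type and at 21.0 ± 0.79 h with 0.39 ± 0.08 in knockout, and the knockout call was lost without the knockout set P library of ZT08 (adjusted p = 0.0663) and with GC and length correction (adjusted p = 0.489). In wild type, Vnn1 (1.08 ± 0.22 at 9.25 h), Slc27a2 (0.46 ± 0.09 at 10.8 h), Decr2 (0.55 ± 0.12 at 10.7 h) and Pex11a (0.47 ± 0.12 at 12.0 h) peaked between ZT08 and ZT12 and were not called in knockout. Their knockout amplitudes were 0.44 ± 0.22, 0.29 ± 0.09, 0.34 ± 0.12 and 0.42 ± 0.12 in that order. No rhythm difference was called for them, so a lost rhythm cannot be read from these calls. The wild-type Decr2 rhythm was lost without the wild-type set I library of ZT12 (adjusted p = 0.0692), and the wild-type Pex11a rhythm without the same library (0.153) or the wild-type set P library of ZT24 (0.0709). Bdh1 had a called rhythm in knockout, 0.54 ± 0.12 at 8.71 ± 0.81 h, and an uncalled 0.34 ± 0.11 at 7.6 ± 1.30 h in wild type. In set I alone 0 members were called rhythmic by edgeR in either genotype, and in set P alone 8 in wild type and 6 in knockout. These 8 are not the same genes as above. In set P the wild-type rhythms of Vnn1 (edgeR, adjusted p = 0.142), Slc27a2 (0.0893) and Pex11a (0.0758) were not called. Without wild-type set I those of Vnn1 (0.110), Slc27a2 (0.0576) and Acsl1 (0.127) were not called. The share of all genes was not counted for these fits.

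**Figure D4:**
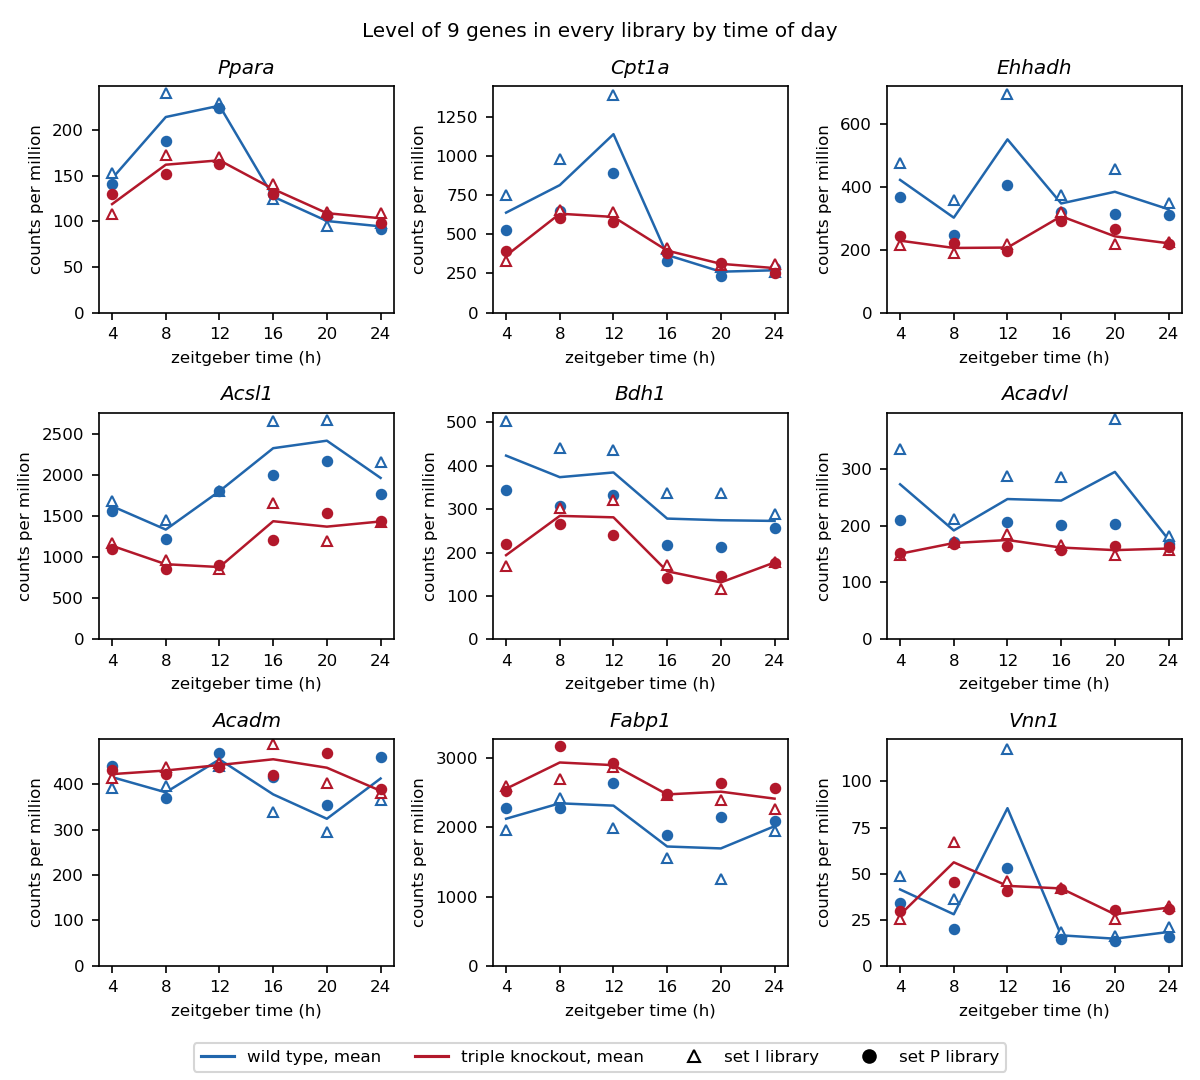
CPM (y axis) against zeitgeber time (x axis) for 9 of the 35 genes, 1 panel each, with every library drawn as a triangle (set I) or a circle (set P), wild type in blue and knockout in red, and lines through the means of 2 libraries. Both knockout libraries lie below both wild-type libraries at ZT04, ZT08 and ZT12 for Ppara, at ZT04 and ZT12 for Cpt1a, and at all 6 times for Acsl1 and Bdh1.

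The library sets differed for most members. In wild type, set I was above set P in 169 of 210 pairs of gene and time, and 17 genes showed this at all 6 times. In knockout it was so in 119 of 210 pairs. The share of all genes with these orders was not counted, so they cannot be called particular to these members. The genotype difference itself differed between sets for 18 of 35 members, where 29% of all genes were called (set and its product with genotype added to the fit after the sets were seen to differ). In set P knockout was below wild type at all 6 times for 4 members, Ehhadh, Acadvl, Bdh1 and Acsl1, and in set I for 14. How many of all genes kept this order was not counted either. Across the 35 genes GC percent had a correlation of −0.53 with the set I minus set P log2 change and of −0.29 with the set P change, a description over genes that share these libraries. GC content and library set moved with the results, and apart from the set and corrected values given above their part was not tested.

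**Figure D5:**
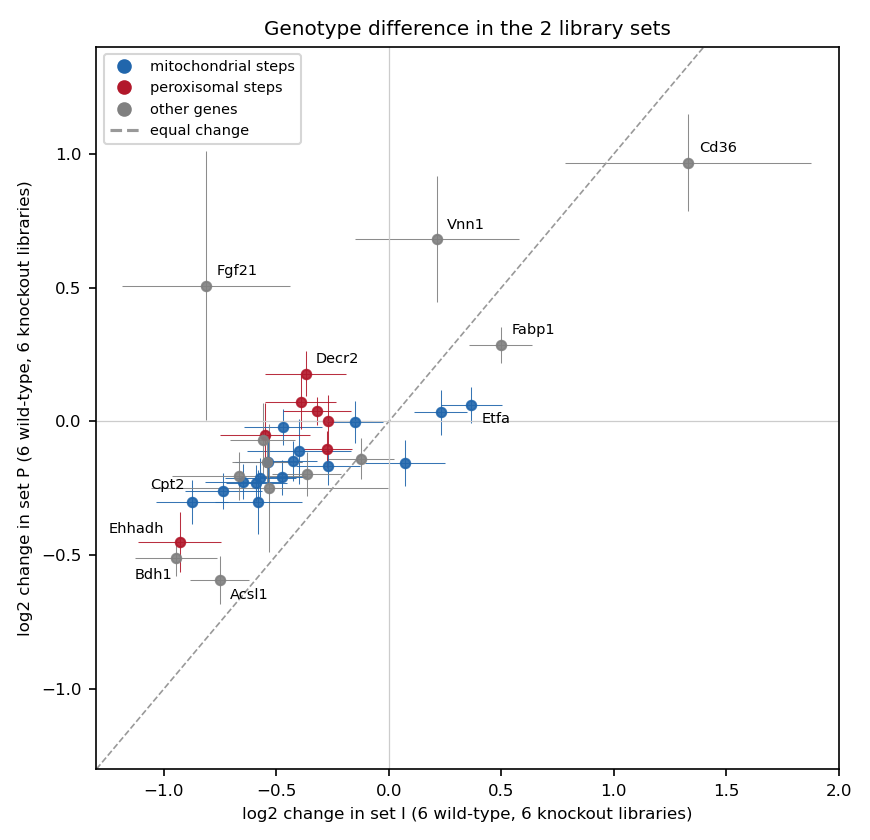
Log2 difference of knockout against wild type in set P (y axis) against set I (x axis), 1 point per gene with standard errors and a dashed line for equal change. Most points lie at negative values and above the dashed line, and Cd36 is at 0.97 in set P and 1.33 in set I.

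Other genes of the same pathways, taken from named lists, gave the following counts of falls and rises. Of all genes 21.1% fell and 12.1% rose, and in set P 6.62% and 7.18% did. No list was tested against these shares, so no count can be called particular to its list. Of 19 further mitochondrial oxidation genes tested, 11 fell and 1 rose (median −0.29, in set P 6 and 0). Those with the smallest p among the falls were Mcee, methylmalonyl-CoA epimerase (−0.69), Acad10, an acyl-CoA dehydrogenase family member (−0.90), Acot2, a mitochondrial acyl-CoA thioesterase (−1.33), and Ivd, isovaleryl-CoA dehydrogenase of leucine breakdown (−0.78). The rise was Cpt1c, the brain form of the carnitine transferase (1.63), at a mean of 0.609 CPM and 0.730 Mb from Dbp. Of 20 peroxisomal oxidation and import genes, 10 fell and 2 rose (median −0.27, in set P 6 and 1). They included Nudt19, a coenzyme A diphosphatase (−0.84), Acot4, a peroxisomal thioesterase (−0.87), Hacl1, the lyase of alpha-oxidation (−0.77), and Mlycd, malonyl-CoA decarboxylase (−0.64). The rises were Abcd3, a transporter of fatty acids into peroxisomes (0.46), and Scp2, a sterol carrier with thiolase activity (0.28). Among peroxisome assembly genes Pex26 (−0.51), Pex6 (−0.38) and Pex7 (−0.20) fell.

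The same shares of all genes (21.1% and 12.1%, in set P 6.62% and 7.18%) stand beside the next lists. Of 22 tested uptake and acyl-CoA synthetase genes 7 fell and 2 rose (median −0.07, in set P 4 and 3). Slc27a5, the bile acid and very-long-chain acyl-CoA synthetase (−1.14), Lpl, lipoprotein lipase (−1.46), Pnpla2, adipose triglyceride lipase (−0.61), and Lipc, hepatic lipase (−0.46), fell, and the fatty acid binding proteins Fabp5 (0.41) and Fabp2 (0.65) rose. Of 24 omega-oxidation and lipid droplet targets 14 fell and none rose (median −0.46, in set P 8 and 1). The smallest p belonged to the omega-hydroxylases Cyp4a10 (−5.83) and Cyp4a31 (−2.31) and the thioesterases Acot1 (−1.55) and Acot3 (−2.52). The 23 partners and coregulators had 3 falls and 7 rises (median 0.21, in set P 0 and 3). Nr1h3, which encodes LXR-alpha (−0.38), the PPAR partner Rxrb (−0.38) and the FGF receptor Fgfr4 (−0.26) fell. Fgfr1, the receptor used by FGF21 (1.03), Pparg, the adipocyte PPAR (0.50), Ncoa1, a nuclear receptor coactivator (0.30), and Med1, a Mediator subunit that binds nuclear receptors (0.21), rose.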

How the data were processed

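Per the labels' protocols, liver RNA was extracted with guanidinium thiocyanate and made into stranded mRNA libraries. Per the submitters' processing notes, STAR 2.4.0i and the mm10 build were used; which program counted reads, with which annotation and strand option, is not given in the sources used here. The authors deposited raw read counts per gene for 24 libraries. The 35 members and all gene lists were chosen with earlier results of these data known. Counts were tested with edgeR 4.0.16 in R 4.3.3 (TMM scaling, genes filtered at a count minimum of 10, group means for 6 times in 2 genotypes, quasi-likelihood F-tests, Benjamini-Hochberg adjustment over 15090 genes, called at adjusted p under 0.05), and DESeq2 1.42.0 was an alternative. Rhythms used cosine and sine terms of 24 h. Sets were also fitted alone, with genotype and time terms. GC and length correction used an offset per library. Transcript length, GC and overlaps came from the GENCODE mm10 annotation. Length and GC were those of the longest transcript of each gene, whether coding or not, which need not be the one expressed. For Acaa1a that transcript has 3668 bases and the longest coding one 1762. Corrected values and values per kilobase rest on this choice. CPM values use TMM-scaled library sizes and SDs over libraries include the time of day. Pathway genes were named by smallest p, up to 4 in each direction, or all where 5 or fewer were called. Some genes of the ketone body and peroxisome assembly lists, and the counts over those 2 lists, are not reported here.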

Additional observations from a re-analysis of the deposited data

Results flagged for a closer look

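The genotype difference differed between the library sets for 18 members (set by genotype term in edgeR, adjusted p under 0.05; 29% of all genes). The values below are the difference in set P minus that in set I on the log2 scale, and all 18 are positive, so that the knockout minus wild-type difference was lower in set I. In the carnitine shuttle they were 0.60 for Cpt2 and 0.41 for Slc25a20. In the mitochondrial spiral they were 0.30 for Hadha, 0.29 for Hadhb, 0.38 for Hadh, 0.50 for Acadvl, 0.45 for Acads, 0.47 for Acaa2 and 0.38 for Eci1. Among peroxisomal genes they were 0.50 for Ehhadh, 0.38 for Acaa1a, 0.52 for Acaa1b, 0.57 for Decr2 and 0.49 for Pex11a. The others were 0.46 for Bdh1, 1.33 for Fgf21, 0.53 for Vnn1 and 0.41 for Creb3l3. The sets also differed in the GC trend of their libraries, and with GC and length correction 8 members were called. The share of all genes under that correction was not counted, and the 29% is from the fit without it. What the letters stand for was not given, so the source of the difference was not tested.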

How the results depend on the processing

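Of the 21 members called on average, Ehhadh, Bdh1 and Acsl1 were called under all 10 alternatives and all 24 fits that left out 1 library, and 16 were called in all 24. Leaving out 1 library gave 14 to 22 members lower, 2 to 5 higher, 10 to 12 mitochondrial and 1 to 3 peroxisomal genes lower; at ZT04 0 to 5 members called, at ZT12 0 to 6, at ZT16 0 to 2, at ZT20 0 to 21, at ZT08 and ZT24 0 to 0; wild-type rhythms 6 to 10, knockout rhythms 4 to 6, rhythm differences 0 to 0, time interactions 0 to 0, and ZT04 to ZT12 against ZT16 to ZT24 0 to 2. The 21 at ZT20 came without the wild-type set P library of that time, and 0 without its wild-type set I or either knockout library. The 5 higher came without the wild-type set P library of ZT16 or ZT20, and 1 peroxisomal fall without the wild-type set I library of ZT04, ZT08 or ZT16.

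Set P alone gave 7 lower, 4 mitochondrial and 1 peroxisomal; set I alone gave 1 higher, 1 peroxisomal and 0 rhythms in either genotype. Without wild-type set I there were 9 lower, 5 mitochondrial, 1 peroxisomal, 1 at ZT08, 2 at ZT16, 13 knockout rhythms and 1 interaction. Without knockout set P, chosen after seeing the data, there were 3 lower, 0 higher, 0 mitochondrial, 1 peroxisomal, 0 at ZT12 and ZT20, 3 wild-type and 0 knockout rhythms. Without a low-count filter 7, 1, 4, 3, 8 and 1 members were called at the 6 times in order, 4 interactions and 5 in the ZT04 to ZT12 contrast. DESeq2 called 4 at ZT04, 4 at ZT12, 3 at ZT16, 4 at ZT20 and 2 interactions, and RLE size factors 2 at ZT20. GC and length correction called 3 at ZT04, 1 at ZT16 and 2 at ZT20, and 8 in place of 18 members for set against genotype. Counts over all genes moved as well: 3180 lower became 900 in set P, 1366 without wild-type set I and 369 without knockout set P, and 1827 higher became 977, 1528 and 210 there, 3605 without a filter and 3794 with the replicate block; leaving out 1 library gave 2113 to 4386 lower and 1202 to 4744 higher, the most without the wild-type set P library of ZT20. No test at single times, and no interaction, can be had in set I or P alone, which hold 1 library per group. For single times, the share of all genes called was counted only in the main edgeR fit and in DESeq2. Member counts at single times in the other fits and leave-outs, those at ZT20 among them, have no such share beside them. They cannot be called particular to these members.

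The letters I and P were also fitted as a replicate block: 21 lower, 4 higher, 12 mitochondrial and 3 peroxisomal genes, and 2, 0, 4, 3, 13 and 0 members at the 6 times. With GC and length correction added, members at the 6 times were 8, 0, 5, 3, 7 and 0. The block alone called Acaa1b (−0.31), Acaa2 (−0.25), Etfa (0.21) and Crat (−0.31) in addition and ended no averaged call of a member. Deviations of libraries with the same letter correlated at 0.184, 0.123, 0.231, 0.0705, 0.0541 and 0.0842 at the 6 times, a hint of pairing from the data, not the design. Some uncalled members turned positive. Without wild-type set I these were Acaa1a (0.0976), Acaa1b (0.00529), Fgf21 (0.347), Eci2 (0.0457), Decr1 (0.0176), Decr2 (0.135) and Pex11a (0.0550). In set P they were Acaa1a (0.0378), Fgf21 (0.508), Eci2 (0.00102), Decr2 (0.178) and Pex11a (0.0741), and in set I Etfdh (0.0723). GC and length correction gave 0.0276 for Acaa1a and 0.170 for Fgf21, and 0.0293 and 0.162 with the block added. Leaving out 1 library gave −0.414 to 0.0239 for Fgf21 and −0.0854 to 0.0219 for Etfdh. The cause of these changes was not tested.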
